A study of Rattus norvegicus with 6 samples.

Results

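The genes studied here are 10 genes of the cytotoxic granule and of natural killer (NK) cells, namely Prf1, Gzma, Gzmb, Gzmk, Gzmm, Nkg7, Ctsw, Ccl5, Klrd1 and Il2rb. They were chosen by name, and every probe set whose single gene symbol in the array annotation was one of the 10 was taken, which gave 11 of 20826 single-symbol probe sets and 10 of 14217 genes. Gzmb had 2 such probe sets and each of the other genes had 1, and 1 further probe set carries both Gzmb and a second symbol. Whole-blood RNA of 6 male Sprague-Dawley rats aged 8 weeks was measured on 6 GeneChip arrays, with 3 rats in the MCAO (middle cerebral artery occlusion) group and 3 rats in the sham group. All 6 rats had a thread passed into the left internal carotid artery under isoflurane and later withdrawn, with the common and external carotid arteries tied. The thread of the MCAO group had a silicone coat and closed the origin of the middle cerebral artery, and that of the sham group was uncoated. Blood was drawn from the heart 24 h after reperfusion. The 3 MCAO rats are those that the study kept for their infarct size out of a larger operated set, so they do not show how far MCAO rats vary in general. No untreated rats were among the samples, and whole blood holds every circulating cell type.

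Cytotoxic lymphocytes, which are NK cells and CD8 T cells, kill a bound target by releasing granules. Perforin opens the target membrane, and granzymes, which are serine proteases, pass through and start cell death. Ccl5 is a chemokine that such cells store and secrete, Klrd1 (CD94) is the shared chain of the NKG2 receptors that read MHC class I, and Il2rb is the chain through which interleukins 2 and 15 keep these cells alive. In blood these genes are often read as a trace of NK and cytotoxic T cells. The cells that gave their RNA, that of Ccl5 included, were not identified here. A lower value in whole blood can come from fewer NK and cytotoxic T cells, from less RNA in each, or from the part of the other cells in the RNA. These cannot be told apart here.

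Promoter sequences were printed for 4 members, because these stand for the ways in which the members behaved across the rats. Prf1 was called lower, Gzmm followed it most closely, and Gzmk followed Ccl5. Gzmb followed neither Prf1 nor Ccl5 at its higher-valued probe set. Each runs from 250 bases before the start site to 50 bases after it, 5′ to 3′ on the strand of the gene, from RefSeq on the GRCr8 build. Capitals mark the letters searched on both strands, which are GGTGTGA (T-box core), TGTGGT (Runx), GGAAGT (ETS) and TGACGTC (cyclic AMP response type). A match is a string of letters, not a known binding site.
Prf1 promoter, GRCr8 chr20:29788790-29789089, plus strand: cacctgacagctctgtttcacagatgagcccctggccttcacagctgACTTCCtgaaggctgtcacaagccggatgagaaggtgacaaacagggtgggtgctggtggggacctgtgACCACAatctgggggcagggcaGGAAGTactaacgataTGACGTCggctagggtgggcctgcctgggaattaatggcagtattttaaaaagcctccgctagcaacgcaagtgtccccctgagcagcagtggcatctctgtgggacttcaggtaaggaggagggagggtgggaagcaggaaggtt
Gzmm promoter, GRCr8 chr7:10667207-10667506, minus strand: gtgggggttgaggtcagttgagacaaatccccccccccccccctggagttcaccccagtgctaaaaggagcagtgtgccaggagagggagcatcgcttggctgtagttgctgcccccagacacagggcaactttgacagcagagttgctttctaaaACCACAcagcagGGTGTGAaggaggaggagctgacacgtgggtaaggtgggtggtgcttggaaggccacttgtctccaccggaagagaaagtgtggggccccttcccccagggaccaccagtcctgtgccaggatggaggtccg
Gzmk promoter, GRCr8 chr2:46581966-46582265, minus strand: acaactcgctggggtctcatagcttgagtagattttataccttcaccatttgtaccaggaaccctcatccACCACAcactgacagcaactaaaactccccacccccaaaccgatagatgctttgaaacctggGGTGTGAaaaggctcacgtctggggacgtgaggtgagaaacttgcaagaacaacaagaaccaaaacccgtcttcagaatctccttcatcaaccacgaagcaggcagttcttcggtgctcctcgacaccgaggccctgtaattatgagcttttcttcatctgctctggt
Gzmb promoter, GRCr8 chr15:34462420-34462719, minus strand: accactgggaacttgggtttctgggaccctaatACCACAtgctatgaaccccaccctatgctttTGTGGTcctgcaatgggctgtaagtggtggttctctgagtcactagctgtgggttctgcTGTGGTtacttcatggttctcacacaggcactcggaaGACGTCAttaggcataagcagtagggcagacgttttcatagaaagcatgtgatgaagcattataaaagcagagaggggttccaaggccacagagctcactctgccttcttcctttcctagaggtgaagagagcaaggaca
Promoters of 6 of the 10 members were in the RefSeq table, those of Prf1, Gzma, Gzmb, Gzmk, Gzmm and Nkg7. The promoters of Ctsw, Ccl5, Klrd1 and Il2rb were not used here. The motif letters were added after these sequences were seen, so the counts describe these promoters and cannot show an enrichment. The Runx letters were found in all 6, against 17.3% of the 33469 promoters of the table, and no matches overlapped each other in these promoters. The T-box core stood in the promoters of Gzmk and Gzmm, against 3.83% of all promoters, and the cyclic AMP response letters in those of Prf1 and Gzmb, against 3.22%. The ETS letters stood in the promoters of Prf1 and Gzma, against 22.6%.

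The deposited values are log2 values on the scale of DFW (Distribution Free Weighted), a summary method that shrinks differences between arrays, and it shrinks them by very different amounts from one probe set to the next. Across the 11 probe sets, the range over the 6 rats went from 3.5e-06 for a Gzmb probe set to 0.0313 for Ccl5, where the median range of all 31042 probe sets tested was 6.55e-06. A log2 difference given here is thus no fold change of RNA, its size cannot be set against that of another gene, and a level cannot be compared between probe sets. The rats were therefore also compared by position, which is the place of a rat between the lowest rat (0%) and the highest rat (100%) of a probe set. MCAO rat 1 stood apart from the other rats. Its array had the lowest median value, 5.56433, against 5.56438 to 5.5644 in the other 5 arrays. It was the lowest rat at 19.5% of all probe sets, which is little above an even share of 1 in 6. Its array was not low throughout, since its median position over all probe sets was 65.8%, against 44.3% to 50.8% in the other 5 rats. The difference of each member is given with and without it.

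Perforin and Ccl5 were the 2 members called lower in the MCAO group, on the arrays from which the study drew its own list with the same method. The other 9 probe sets were not called, and none was called higher. Calls were made with Rank Products over all probe sets at a false discovery rate (FDR) under 0.05, which called 0.606% of all probe sets lower and 0.129% higher. MCAO means lay below sham means at 11 of the 11 probe sets, as they did at 46.6% of all probe sets. In none of the 11 did every MCAO rat lie below every sham rat, which was seen at 3.6% of all probe sets, and in none did every MCAO rat lie above, which was seen at 4.82%. The median log2 difference, MCAO minus sham, was -8.33e-05 over the 11 and 6.72e-08 over all probe sets. The sizes of these medians cannot be compared, because DFW shrinks probe sets unequally. Expressed in SDs within groups, which puts the probe sets on one scale, the median difference was -0.62 over the 11 and 0.08 over all. limma called none of the 31042 probe sets (0%). Of all probe sets, 1150 (3.7%) had an unadjusted limma p under 0.05, and none of the 11 did.

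**Figure D1:**
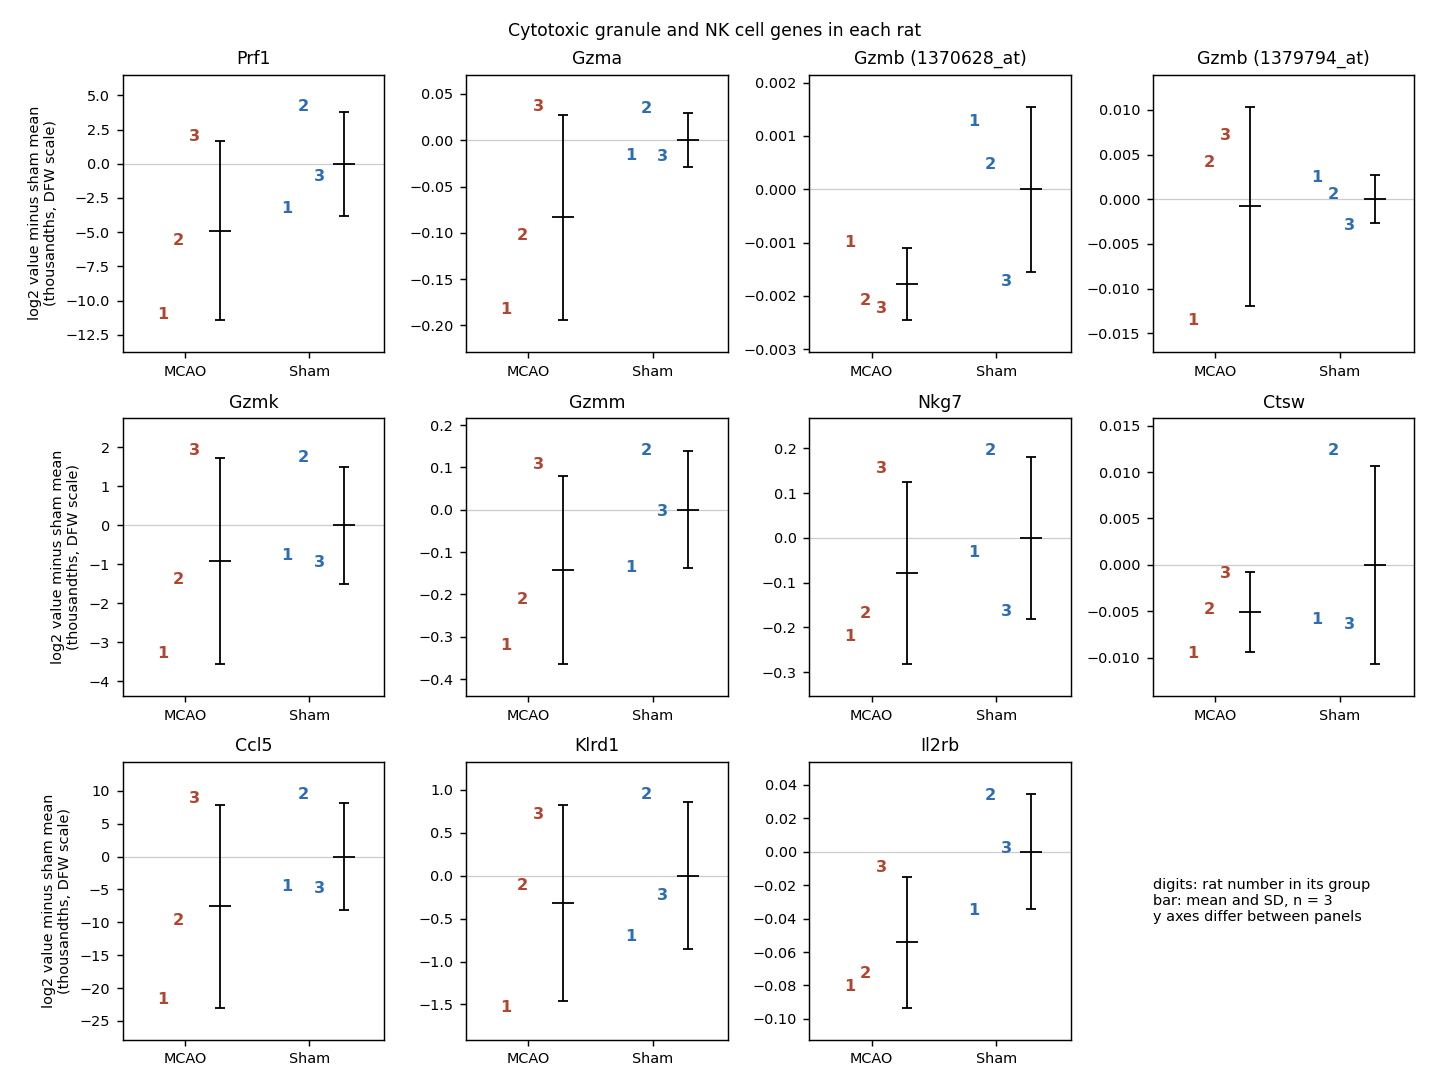
Log2 value of each rat minus the mean of the sham group, in thousandths on the DFW scale (y axis), for the 11 probe sets in the MCAO and sham groups (x axis). Numerals give the rat number and bars the mean and SD (n = 3), and the y axes differ between panels (of the Gzmb panels, the left one is the higher-valued probe set). MCAO rat 1 is lowest in 10 of the 11 panels, and the groups overlap in every panel.

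Prf1 encodes perforin, which forms the pore. MCAO rats 1 to 3 had 6.3216, 6.3270 and 6.3346, whereas sham rats 1 to 3 had 6.3294, 6.3368 and 6.3317. The MCAO values ran from the lowest of all 6 rats to the second position from the top, so that MCAO rat 3 lay above sham rats 1 and 3 while MCAO rats 1 and 2 lay below every sham rat. MCAO rats averaged 6.328 ± 0.0065 and sham rats 6.333 ± 0.0038 (mean ± SD of 3 rats each), which gave a difference of -0.0049 on the log2 scale (MCAO minus sham, SE 0.0041). Prf1 was called lower by Rank Products (FDR 0.0223), whereas the exact two-sided permutation test over the 6 rats gave p = 0.4, where 0.1 is the smallest value it can reach. The call was lost without MCAO rat 1 (a difference of -0.0018, FDR 0.0586), MCAO rat 2 (0.0737) and sham rats 1 (0.108), 2 (0.421) and 3 (0.199), and it was kept without MCAO rat 3 (0.0012).

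The granzymes lay below the sham mean on average, and none was called. Gzma, a trypsin-like granzyme, measured 5.42475, 5.42483 and 5.42497 in MCAO rats 1 to 3, whereas sham rats 1 to 3 had 5.42492, 5.42497 and 5.42492. MCAO rats 1 and 2 were the lowest of the 6 rats and MCAO rat 3 was the highest. The difference was -8.3e-05 (SE 6.2e-05, FDR 0.758), and the MCAO range was 4.23 times the sham range. It was -3.3e-05 without MCAO rat 1 and -0.00014 without MCAO rat 3, with no call in either case. Gzmk, another trypsin-like granzyme, whose gene lies next to Gzma with no protein-coding gene between them in GRCr8, measured 6.3135, 6.3154 and 6.3187 in MCAO rats 1 to 3, whereas sham rats 1 to 3 had 6.3160, 6.3185 and 6.3158. MCAO rat 3 was again the highest rat and MCAO rat 1 the lowest. The difference was -0.00092 (SE 0.0016, FDR 0.221). Its direction turned without MCAO rat 1 (0.00027, FDR 0.744), and leaving out MCAO rat 3 brought a call (-0.0023, FDR 0.0161). Gzmm, which cuts after methionine and similar residues, measured 6.69256, 6.69267 and 6.69299 in MCAO rats 1 to 3, whereas sham rats 1 to 3 had 6.69275, 6.69302 and 6.69288. As for Prf1, MCAO rats 1 and 2 lay below every sham rat and MCAO rat 3 lay between sham rats 2 and 3. The difference was -0.00014 (SE 0.00014, FDR 0.451), and it was 0 after quantile normalization. It was -5.3e-05 without MCAO rat 1, -7.2e-05 without sham rat 2 and -0.00027 without MCAO rat 3, again with no call.

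Gzmb, the granzyme that activates caspases, was not called at either of its probe sets. At its higher-valued probe set, MCAO rats 1 to 3 had 6.005819, 6.005818 and 6.005817, whereas sham rats 1 to 3 had 6.005821, 6.00582 and 6.005818. Here MCAO rat 3 was the lowest and sham rat 1 the highest, and the groups overlapped at sham rat 3. The difference was -1.8e-06 (SE 9.5e-07, exact permutation p = 0.2), and it was -2.2e-06 without MCAO rat 1. In SDs within groups it was -1.48, the most negative of the 11 probe sets. At its lower-valued probe set the values lay between 5.417673 in MCAO rat 1 and 5.417694 in MCAO rat 3, and all 3 sham rats lay between MCAO rats 1 and 2. The difference was -7.7e-07 (SE 6.2e-06, exact permutation p = 1), and it turned positive without MCAO rat 1 (5.6e-06). The probe set with a second symbol had a difference of 2.5e-07 over a range of 1.5e-06 and is not counted among the members.

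Both granule-associated proteins had lower means and were not called. Nkg7, a membrane protein of the granule, measured 5.98376, 5.98381 and 5.98413 in MCAO rats 1 to 3, whereas sham rats 1 to 3 had 5.98394, 5.98417 and 5.98381. MCAO rat 3 and sham rat 2 were high, and sham rat 3 lay beside MCAO rat 2. The difference was -7.8e-05 (SE 0.00015, FDR 0.568) and turned positive without sham rat 2 (2e-05). It was -7.5e-06 without MCAO rat 1 and -0.00019 without MCAO rat 3, with no call in either case. Ctsw, cathepsin W, a cysteine protease of NK and CD8 T cells, had values from 5.799431 in MCAO rat 1 to 5.799453 in sham rat 2, and the other 4 rats lay between positions of 14.3% and 39.5%. Sham rat 2 alone was high. The difference was -5.1e-06 (SE 6.3e-06, FDR 1), it was -2.9e-06 without MCAO rat 1, and it turned positive without sham rat 2 (1.1e-06).

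Ccl5 had the widest range of the members on the DFW scale. MCAO rats 1 to 3 had 7.8606, 7.8727 and 7.8913, whereas sham rats 1 to 3 had 7.8778, 7.8919 and 7.8775. MCAO rat 3 and sham rat 2 were both high and close to each other, MCAO rat 1 was low, and sham rats 1 and 3 lay between MCAO rats 2 and 3. MCAO rats averaged 7.875 ± 0.015 and sham rats 7.882 ± 0.0082 (mean ± SD of 3 rats each), which gave a difference of -0.0076 on the log2 scale (MCAO minus sham, SE 0.0095). Rank Products called it lower (FDR 0.0105), and the exact permutation test gave p = 0.4. Without MCAO rat 1 the difference was -0.00045 and the call was lost (FDR 0.0524). It was also lost without MCAO rat 2 (0.0527) and sham rats 1 (0.0889), 2 (0.345) and 3 (0.131). Without MCAO rat 3 the difference was -0.016 and the call was kept, with an FDR of 0 in 100 permutations.

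The receptors had lower means as well, without a call. Klrd1 measured 5.7855, 5.7869 and 5.7877 in MCAO rats 1 to 3, whereas sham rats 1 to 3 had 5.7863, 5.7880 and 5.7868. MCAO rats 2 and 3 both lay above sham rats 1 and 3. The difference was -0.00031 (SE 0.00077, FDR 0.597), and it turned positive without MCAO rat 1 (0.0003) and without sham rat 2 (0.00016). Il2rb measured 5.91790, 5.91791 and 5.91797 in MCAO rats 1 to 3, whereas sham rats 1 to 3 had 5.91795, 5.91801 and 5.91798. Here MCAO rats 1 and 2 were low together, and sham rat 1 lay below MCAO rat 3, which alone kept the groups from separating. The difference was -5.4e-05 (SE 2.8e-05, FDR 0.506, exact permutation p = 0.2), and it was negative whichever rat was left out, with -4.1e-05 without MCAO rat 1.

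**Figure D2:**
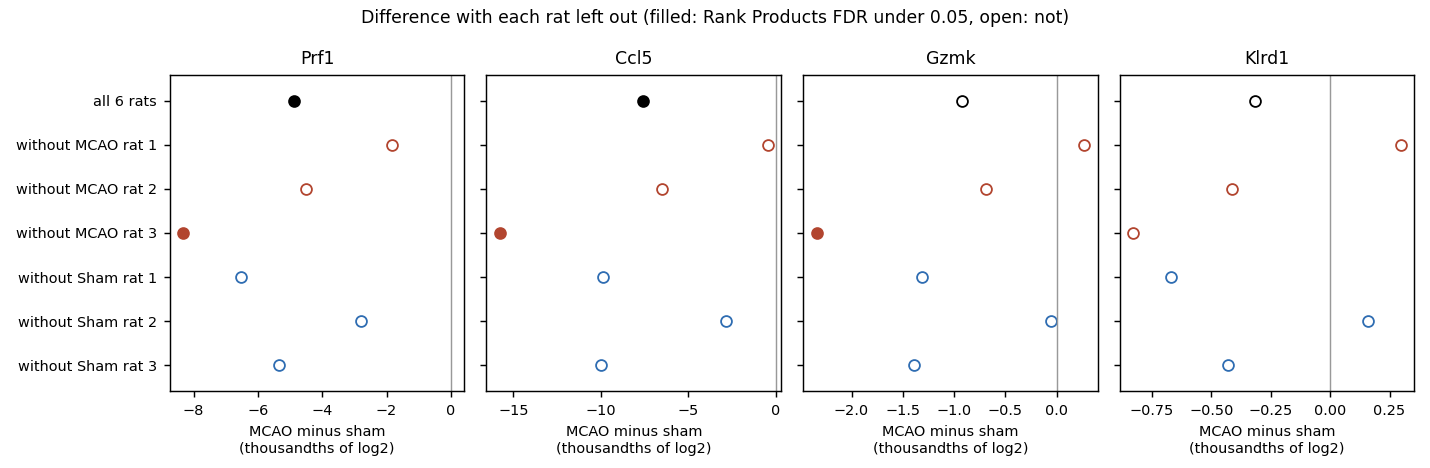
Log2 difference, MCAO minus sham, in thousandths on the DFW scale (x axis), for Prf1, Ccl5, Gzmk and Klrd1 with all 6 rats and with each rat left out (y axis). Filled points were called lower by Rank Products (FDR under 0.05) and open points were not. Without MCAO rat 1 the Ccl5 difference is -0.00045, and Gzmk and Klrd1 lie above 0.

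Effectors, chemokine and receptors did not form separate groups by the size of the difference. In SDs within groups the difference went from -1.48 to -0.09 over the 6 probe sets of perforin and the granzymes, from -0.62 to -0.41 over both granule-associated proteins, and from -1.48 to -0.31 over both receptors, and it was -0.61 for Ccl5. These intervals overlap, and whether the roles differ was not tested. The MCAO group had the wider range at 9 of the 11 probe sets, by 1.04 to 4.23 times, and the exceptions were Ctsw and the higher-valued Gzmb probe set. The calls of Prf1 and Ccl5 went with a wide range rather than with a large difference in SDs, since Prf1 stood at -0.91 SD and Ccl5 at -0.61 SD, while Il2rb at -1.48 SD and Gzma at -1.03 SD were not called. Of the 111 probe sets with a range at least as wide as that of Prf1, 53.2% were called lower and 17.1% higher.

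Most members shared their lowest and highest rats, which were picked out after the values were seen. MCAO rat 1 was the lowest rat at 10 of the 11 probe sets, against 19.5% of all probe sets, and either MCAO rat 3 or sham rat 2 was the highest at 10 of the 11, against 30.3%. A low MCAO rat 1 was not particular to the members. It was also the lowest rat at 5 of 5 B cell markers, 8 of 15 T cell markers and 7 of 10 genes of the interleukin 2 and 15 pathway. The counts were 4 of 9 for neutrophil and 2 of 11 for monocyte markers. The median position over the 11 was 0% in MCAO rat 1, 35.3% in MCAO rat 2, 90.7% in MCAO rat 3, 48.3% in sham rat 1, 100% in sham rat 2 and 52.5% in sham rat 3. Each group thus held 1 rat near the top, and the sham group held no rat near the bottom except at single probe sets such as those of Ctsw and Nkg7. Without MCAO rat 1, the mean of the MCAO group was lower at 8 of the 11 probe sets, and without sham rat 2 also at 8.

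**Figure D3:**
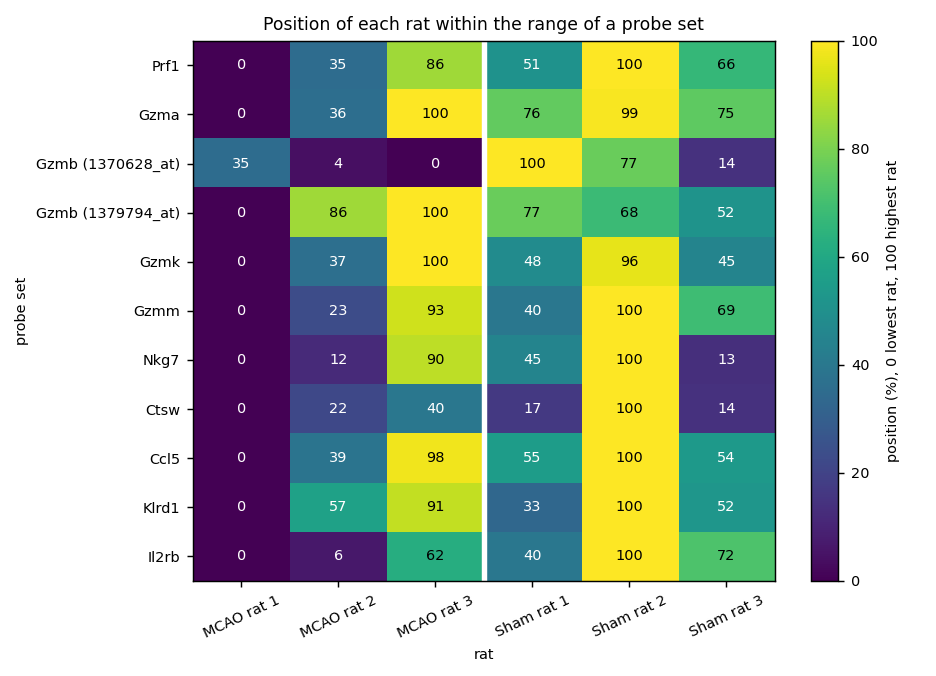
Position of each rat (x axis) within the range of each of the 11 probe sets (y axis), in percent, where 0 is the lowest and 100 the highest rat of the probe set. MCAO rat 1 is at 0 in every row but the higher-valued Gzmb probe set, and MCAO rat 3 and sham rat 2 are high in most rows.

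Over the 6 arrays, the 9 probe sets of the members other than Gzmb correlated with each other at a Pearson r of 0.66 to 0.99, with a median of 0.89 over 36 pairs. Gzmb was set apart after these values were seen. These are descriptions over 6 arrays, which all pairs share. Without MCAO rat 1 the r was 0.57 to 0.99, with a median of 0.85. Prf1 was closest to Gzmm (0.98) and Ccl5 to Gzmk (0.99), and Gzma and its neighbour Gzmk had an r of 0.93. The higher-valued Gzmb probe set had an r between -0.11 and 0.31 with the others. The lower-valued one reached 0.74, but without MCAO rat 1 no more than 0.36, and its r with the other Gzmb probe set was -0.09. For comparison, the median r of Prf1 with all probe sets was -0.19.

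**Figure D4:**
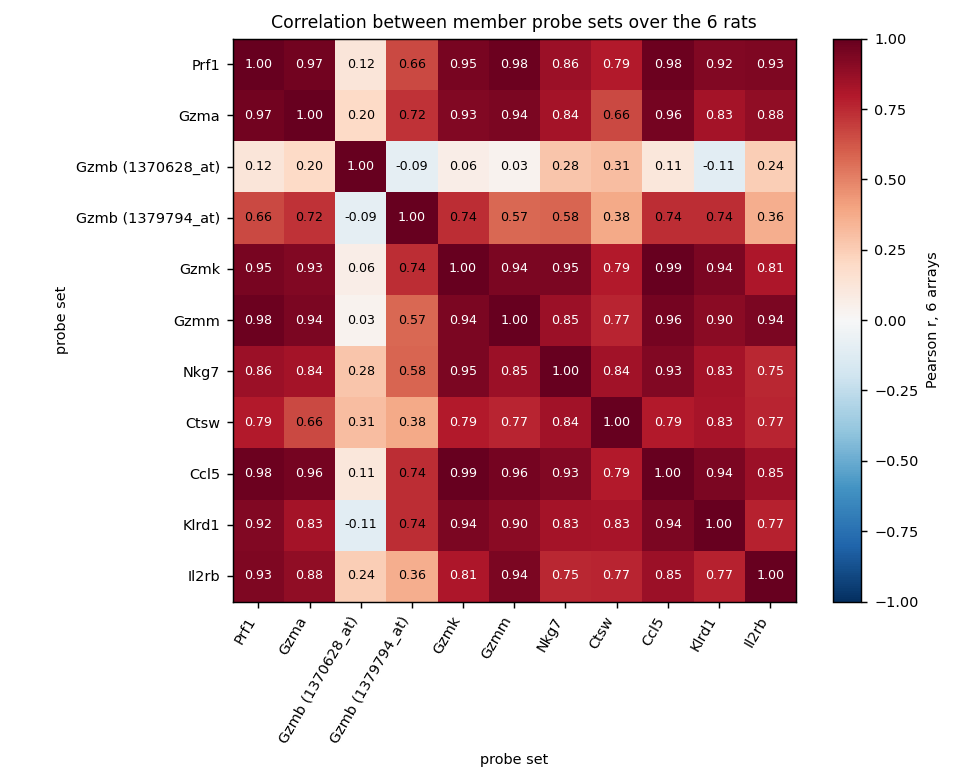
Pearson r over the 6 arrays between the 11 probe sets (both axes). All members but Gzmb correlate at 0.66 or more, and the 2 Gzmb probe sets do not follow each other (-0.09).

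Among all single-symbol probe sets, the 5 most like Prf1 in the order and spacing of the rats were those of Dpysl2 (r = 0.996), Nek9 (0.995), Itgal (0.993), Malsu1 (0.993) and Slc25a5 (0.993). Itgal is the alpha chain of LFA-1, the integrin by which lymphocytes hold their target, and it was itself called lower, with a log2 difference of -0.0028 and an FDR of 0.0491. The 5 most like Ccl5 were Sdha (0.995), Hapstr1 (0.994), Gzmk (0.994), Tmem258 (0.994) and Cfdp1 (0.991). Of these, Gzmk alone is a member.

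Other genes of the cytotoxic pathway were mostly not called. Of 16 measured genes for NK receptors and their adaptors, none was called and 13 had a lower mean in the MCAO group. Their median log2 difference was -3.2e-06. Klrb1a, an NKR-P1 receptor of rat NK cells, had a log2 difference of -0.0013 (SE 0.0012, FDR 0.0922), with the highest value in sham rat 2 and the lowest in MCAO rat 1. Its r with Prf1 was 0.99. Klre1, another lectin-like receptor, was the one gene of the list that was lower in every MCAO rat than in every sham rat, with -8.5e-07 (SE 3.6e-07, exact permutation p = 0.1, the smallest possible). The Klre1 range over the 6 rats was 1.4e-06, below the median of 6.55e-06 over all probe sets. Tyrobp, an adaptor shared with myeloid cells, had 0.00021 (SE 0.00045). Ncr1, the NKp46 receptor that defines NK cells, had -3.4e-05 (SE 9e-05, FDR 0.839) and an r with Prf1 of 0.82. The median r with Prf1 over the 16 genes was 0.72, and single genes ran from -0.73 for Ncr3 to 0.99 for Klrb1a. Of 14 genes of granule transport and release, 1 was called lower and none higher. It was Coro1a, an actin regulator of leukocytes, with -0.0053 (SE 0.0048, FDR 0.0268), and its values correlated with those of Prf1 at 0.98. Stx7, a syntaxin, had -0.00043 (SE 0.00049, FDR 0.268). Stxbp2 was lower in every MCAO rat than in every sham rat (-7.6e-06), and Unc13d was higher in every MCAO rat (7.9e-06).

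Of 10 genes of the interleukin 2 and 15 pathway, none was called. Il2rg, the chain that pairs with Il2rb, was lower in every MCAO rat than in every sham rat, with a log2 difference of -0.00037 (SE 0.00023, FDR 0.111, exact permutation p = 0.1). Il2ra, the alpha chain of the interleukin 2 receptor, was higher in every MCAO rat than in every sham rat, with 1e-06 (SE 3.3e-07, exact permutation p = 0.1). The Il2ra range over the 6 rats was 1.6e-06, below the median range of all probe sets. Over all probe sets, 3.6% were separated in the lower direction and 4.82% in the higher direction. Jak1, a kinase of the interleukin 2 and 15 receptors, had -0.0023 (SE 0.0019, FDR 0.059). Of 8 chemokines and chemokine receptors of cytotoxic cells, none was called. Ccr1, a receptor for Ccl5 that myeloid cells carry too, had 0.0008 (SE 0.00088), and Ccl3 had -6.5e-05 (SE 3.6e-05). Xcl1 was lower in every MCAO rat than in every sham rat, with -1.4e-06 over a range of 2.3e-06, which is also below that median. Of 10 transcription factors, Ets1, a factor of lymphocytes broadly, was called lower, with -0.0086 (SE 0.005, FDR 0.0042), and Id2 had 4.7e-05 (SE 0.00031). Tox was not called but was lower in every MCAO rat than in every sham rat, with -1.4e-05. Of 13 other effectors, none was called, 7 had a lower mean, and Srgn, the proteoglycan core of the granule that many leukocytes make, had -0.00046 (SE 0.0026). Lamp1, a membrane protein of lysosomes and granules, had -4.2e-05 (SE 0.00015). The lists stand against the 0.606% and 0.129% of all probe sets called lower and higher, and such small lists hold too few genes to read a share from 1 call.

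Markers of other blood cells are given beside the members for the same rats. Of 15 T cell markers, Cd3g alone was called lower and 12 had a lower mean, and of 5 B cell markers, Ms4a1 and Fcmr were called lower and all 5 had a lower mean. Of 9 neutrophil markers, Csf3r was called higher and S100a9 lower, although the S100a9 mean was higher in the MCAO group. The Csf3r groups overlapped (exact permutation p = 0.7), with MCAO rat 1 the lowest and MCAO rat 3 the highest of the 6 rats. None of 11 monocyte and none of 9 platelet markers was called, and of 8 erythroid markers Tfrc was called lower. A lower mean in the MCAO group was seen at 2 of 9 neutrophil, 2 of 11 monocyte, 1 of 9 platelet and 8 of 8 erythroid markers. Over all probe sets the share was 46.6%. The mean log2 value over the T cell markers was 6.2057 to 6.2067 in the MCAO group and 6.2065 to 6.2072 in the sham group, and that over the 9 neutrophil markers was 6.272 to 6.299 and 6.280 to 6.284. Genes with a wide range set the spread of such a mean. In the neutrophil list these were S100a8, S100a9 and Csf3r, with ranges of 0.071, 0.099 and 0.066. The next widest was Mmp8 with 0.000158. The median position of the T cell markers was 0% in MCAO rat 1 and 86.5% in sham rat 2, as in the members, but 47.1% in MCAO rat 3, where the members stood at 90.4% (1 probe set a gene). The neutrophil, monocyte and platelet markers had a median position of 100% in MCAO rat 3, and of 39.7%, 46.9% and 21.8% in sham rat 2. The median r with Prf1 was 0.63 for T cell, 0.76 for B cell, 0.41 for neutrophil, 0.42 for monocyte, 0.49 for platelet and 0.53 for erythroid markers. With Ccl5 it was 0.55 for T cell, 0.62 for B cell, 0.54 for neutrophil, 0.57 for monocyte, 0.52 for platelet and 0.41 for erythroid markers, so the lymphoid and myeloid markers lay closer together there. Single genes spread widely around these medians. Among the monocyte markers the r with Prf1 was 0.95 for Csf1r and 0.86 for Lyz2, but 0.01 for Itgam and -0.58 for Ms4a7. Among the T cell markers it was 0.91 for Lck but -0.98 for Cd28. Csf1r and Lyz2 thus followed Prf1 as closely as the member Nkg7 did (0.86). These values carry no detection call, so no marker can be said to be absent, and the part of the other cells in the results of the members was not tested.

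**Figure D5:**
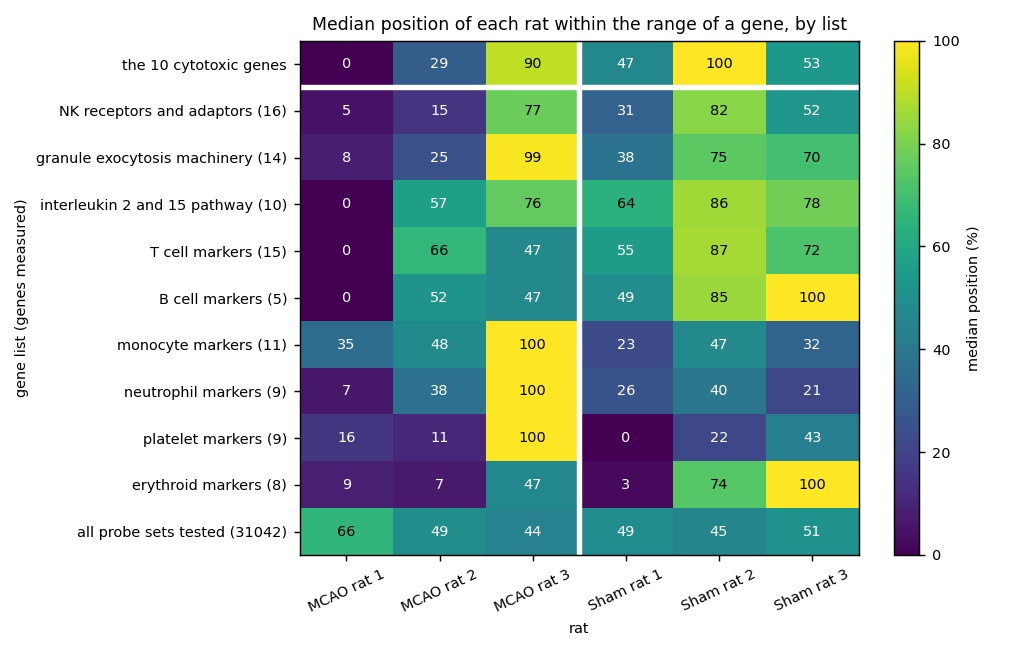
Median position of each rat (x axis) within the range of a gene, in percent, for the 10 cytotoxic genes, for 9 gene lists and for all probe sets tested (y axis, number measured in brackets). The cytotoxic genes are high in both MCAO rat 3 (90.4%) and sham rat 2 (100%), the T and B cell markers are higher in sham rat 2 than in MCAO rat 3, and the neutrophil, monocyte and platelet markers are highest in MCAO rat 3.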

How the data were processed

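Whole-blood RNA of 3 MCAO and 3 sham rats was measured on 1 array each. The authors normalized the array scans with DFW in R, and the log2 values that this gave are those deposited. The base was taken as 2 from their range (4.93 to 14.4), since no log base is stated. DFW contracts differences unequally, which affects Rank Products, because probe sets with a wide range take the extreme ranks. The number of arrays limits the precision, and signal over background is unknown.

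Rank Products, the method of the study, was written in Python 3.11.15 with numpy 2.4.6 (9 differences between arrays, 100 permutations, FDR under 0.05) over 31042 probe sets, with 57 controls set aside. limma 3.58.1 in R 4.3.3 gave differences, SE and adjusted p. Exact two-sided permutation tests used all 20 assignments of the 6 arrays. Both methods were tested on simulated data. Gene symbols were read from the platform annotation (20826 probe sets with 1 symbol, 436 with several, 9780 with none). All member probe sets were named, and from each of 12 lists, with 1 probe set a gene (highest mean), genes called by Rank Products and the 2 with the largest log2 difference (a rule of naming, not a rank of effects), of which those of blood cell types are given as counts and called genes. Ncr1, Ncr3, Klre1, Il2ra, Stxbp2, Unc13d, Xcl1, Tox and the motif letters were added after their values or sequences were seen. The same holds for the blood cell markers given with a single range or r. The members and lists were chosen with earlier results of these data known. Alternatives were limma, an intensity trend, replicate blocks, an FDR of 0.01, rank sums, the 15521 brightest probe sets, controls included, quantiles equalised, median centring and leaving out each rat. Nothing says whether labels number rats by a shared day or batch. The p-values of limma and of the exact permutation test measure the spread between these rats. The Rank Products FDR does not, because it shows how extreme a probe set ranks among all probe sets.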

Additional observations from a re-analysis of the deposited data

How the results depend on the processing

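The count of 2 member probe sets called lower (Prf1 and Ccl5) stayed at 2 among the 15521 brightest probe sets, where 9 of the 11 were tested, with control probe sets kept, after quantile normalization and with arrays centred on the median. It fell to 0 with limma, with limma and an intensity trend, at an FDR under 0.01 and with rank sums, and it ranged from 0 to 3 when each rat was left out, with Gzmk as the third without MCAO rat 3. With limma and the replicate number as a block the count was also 0, and over all probe sets 0, as without the block. The deviations of same-numbered rats correlated at 0.21, 0.04 and 0.06, and those of differently numbered rats at -0.24 to 0.17. So few values cannot decide whether the numbers mark pairs. The labels state no pairing, so the rats were not taken as pairs. No setting called a member higher. Over all probe sets, the number called lower was 188 with all rats, 254, 166 and 338 without MCAO rats 1, 2 and 3, and 43, 21 and 12 without sham rats 1, 2 and 3. After quantile normalization the lower-valued Gzmb probe set turned to 1.98e-05, and the cause was not tested. With arrays centred on the median, the higher-valued and lower-valued Gzmb probe sets were at 2.80e-05 and 2.90e-05 and Ctsw at 2.47e-05. Centring adds 1 constant to every difference, and it brought the median over all probe sets to 2.98e-05, so these turns follow from the scaling and say nothing about the genes. With each rat left out, the difference ranged from -4.70e-06 to 5.61e-06 for the lower-valued Gzmb probe set, from -8.30e-06 to 1.07e-06 for Ctsw, from -0.00234 to 0.000268 for Gzmk, from -0.000829 to 0.000298 for Klrd1 and from -0.000195 to 1.95e-05 for Nkg7. Prf1 (-0.00832 to -0.00183) and Ccl5 (-0.0158 to -0.000452) kept their direction.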

Other observations

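Among the members, the width of the range over the rats went with the call. Of the 50 probe sets with a range at least as wide as that of Ccl5, 42% were called lower and 34% higher, and of the 287 at least as wide as Gzmk, 39.4% and 9.06%. None of the 28686 probe sets narrower than Gzma was called in either direction. The probe sets of Il2rb, Ctsw and Gzmb are among these. Nkg7 and Gzmm were near this width, with 1 probe set narrower than each called higher and none called lower.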
